A study of Oncorhynchus mykiss with 14 samples.

Results

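The transcripts described here are 87 genes whose read counts parted the eggs of rainbow trout females with increased competence for gynogenesis from the eggs of females with decreased competence, in every library and in both kinds of eggs. They were chosen by a rule on the values themselves. Counts were scaled to CPM, the counts of a gene per 1000000 counts assigned to genes in the same library. Of 64494 annotated genes, 21000 had a mean of 0.5 CPM or more over the 14 libraries, and 91 of these had no overlap between the 8 libraries of increased and the 6 libraries of decreased competence. The rule would have taken the 100 genes with the largest ratio of group means, so that limit never applied. It left out 4 of the 91 genes by name, and 87 members remained. Of these, 42 were higher and 45 were lower in eggs of increased competence.

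The eggs came from females of the Rutki strain. A gynogenetic library was made from eggs activated with UV-irradiated sperm, and a control library from eggs of the same clutch given non-irradiated sperm, with 1 library of each kind for each of 7 females. Females F1, F4, F7 and F8 form the group of increased competence, with 4 gynogenetic and 4 control libraries. Females F2, F3 and F6 form the group of decreased competence, with 3 gynogenetic and 3 control libraries. The study also placed F5 in this group but left her eggs out for poor library quality and too few reads. Her clutch is therefore absent here. In the study, competence is the survival of gynogenetic offspring. The study's clustering of gynogenetic eggs on genes correlated with survival placed F1 with F2, F3 and F6. Each library was a pool of 2 to 3 eggs, which the study collected right after treatment. In the study, the irradiated sperm came from European grayling and the non-irradiated sperm from rainbow trout. Control eggs got no pressure shock, the step that doubles the maternal chromosomes. No source used here says if the gynogenetic eggs taken for RNA had been through it. If they had, they may also have been preserved later than the control eggs. Irradiation, sperm species and any shock cannot be told apart between the 2 kinds of egg. The deposited labels give the genotype of all 14 libraries alike, as XX and Doubled Haploids, also for the control eggs. The 2 libraries of a female share her clutch, so the 14 libraries stand for 7 females only.

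A fish egg is loaded with RNA and protein while it grows in the ovary, and its own genome stays silent through the first cleavages. The first steps of development therefore run on the RNA the mother has stored. In mitotic gynogenesis, irradiated sperm triggers development without giving its chromosomes, and a shock that blocks the first cleavage doubles the maternal set. Differences between clutches in stored RNA can thus be read in activated eggs, before the embryo makes RNA of its own. In a pool of eggs, fewer copies of a transcript per egg and fewer eggs that carry it cannot be told apart.

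The libraries held 34535902 to 67557305 assigned counts, with a median of 55678331 in the 8 libraries of increased and 53988462 in the 6 libraries of decreased competence. Between 99.7% and 99.8% of the counts above 0 were even in each library, which leaves 17267951 to 33778652 fragments if a fragment added 2 counts. All counting intervals below were computed on halved counts and cover counting error only. A library with 0 counts allows up to 3 fragments, or 0.0888 to 0.174 CPM depending on the library. The 10 most counted genes took 1.86% to 2.64% of the counts of a library. CCNB1, which encodes cyclin B1 and is stored in eggs for the first divisions, had a median of 2293 CPM and a range of 1653 to 2796 CPM. It was the only 1 of 9 egg markers that could be matched to an identifier through the study's lists of genes correlated with survival.

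Identifiers limited what can be said of function. Only 2 of the 87 members had a gene number in the study's annotation. It covers the study's lists of genes correlated with survival of the same clutches, with 223 symbols. A gene named here is thus one that those lists picked, and the reference used here could not be joined to the other members. These other members are therefore named by Ensembl identifier, with no role given. The lists of known genes chosen for this tissue could be matched in small part through the same annotation. The matches were 2 of 14 apoptosis genes, 0 of 14 DNA repair genes, 2 of 12 spindle and cytokinesis genes and 0 of 16 maternal factors. An unmatched gene is one missing from that annotation, which says nothing of its level in the eggs. Among markers of other cells, 0 of 9 follicle cell genes, 0 of 6 red blood cell genes, 0 of 6 leukocyte genes and 0 of 5 sperm genes could be matched. No member was among the matched genes, and 1 of the matched apoptosis genes could not be a member because the rule leaves it out by name. Whether RNA of follicle, blood or sperm cells took part in any difference was not tested.

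The choice of members used the comparison of competence, so its values are a description and carry no test. Genes without overlap were 0.433% of the 21000 genes, with 0.219% higher and 0.214% lower in eggs of increased competence. The log2 ratio of increased over decreased competence, computed on mean CPM with 0.1 CPM added, was 0.39 to 5.46 in the 42 higher members, with a median of 1.42. It was -4.31 to -0.29 in the 45 lower members, with a median of -1.22. The median of the absolute log2 ratio was 1.36 over the members and 0.264 over all 21000 genes. The ratio reached 1 or more on the absolute log2 scale in 57 members, 31 of them higher and 26 lower.

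**Figure D1:**
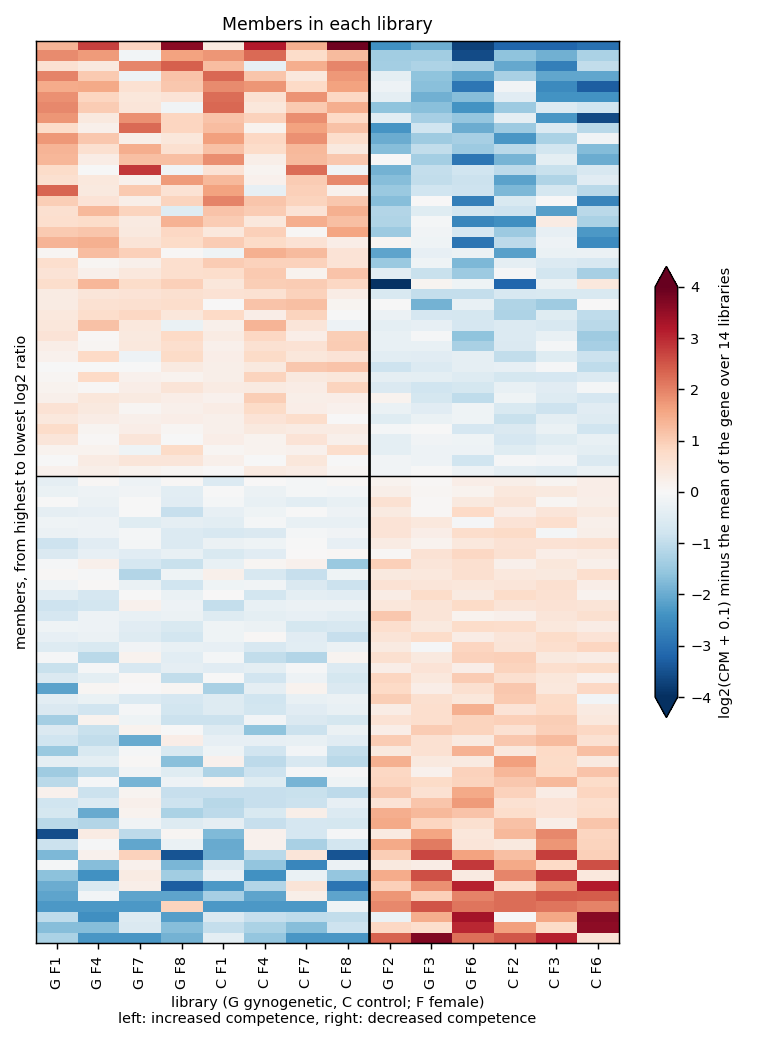
Each of the 87 members (a line of the map) in each of the 14 libraries (columns, increased competence left of the black line, G gynogenetic and C control eggs, with the female), as log2(CPM + 0.1) minus the mean of the gene over the 14 libraries. The 42 higher members stand above the black horizontal line and the 45 lower ones under it, and the colours are strongest at the top and at the bottom, where the log2 ratios reach 5.46 and -4.31.

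The mean of the members over the 14 libraries was 0.594 to 260 CPM with a median of 8.12 CPM, against up to 3482 CPM with a median of 8.28 CPM over all 21000 genes. The medians were close, while the most counted genes lay far above the most counted member. Of the 87 members, 17 had a mean under 0.5 CPM in the group where they were lower, 8 among the higher and 9 among the lower members, and passed the minimum only through the other group. In 12 members at least 1 library of the lower group had 0 counts. At the minimum itself, ENSOMYG00000065472 with 0.594 CPM and ENSOMYG00000036322 with 0.621 CPM stood just inside, and ENSOMYG00000042429 with 0.399 CPM and ENSOMYG00000025094 with 0.365 CPM, which did not overlap either, just outside.

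The widest gap was that of ENSOMYG00000034280. In gynogenetic eggs it had 5.51, 14.4, 3.82 and 26.4 CPM in F1, F4, F7 and F8, against 0.305, 0.463 and 0.0618 CPM in F2, F3 and F6. In control eggs it had 2.77, 19.4, 5.73 and 32.2 CPM in F1, F4, F7 and F8, against 0.142, 0.143 and 0.175 CPM in F2, F3 and F6. The 2 groups were far apart in each kind of egg, while F8 and F4 stood above F1 and F7 in both. The means were 13.8 ± 11.2 CPM with increased (SD, n = 8 libraries of 4 females) and 0.215 ± 0.145 CPM with decreased competence (SD, n = 6 libraries of 3 females), a ratio of 64.2. The nearest libraries were the control eggs of F1 with 2.77 CPM (95% Poisson interval 2.19 to 3.46) and the gynogenetic eggs of F3 with 0.463 CPM (0.239 to 0.808), a 5.998-fold distance.

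Further members with few counts in eggs of decreased competence followed in the order of the ratio. ENSOMYG00000030986 had 1.01 CPM as the lowest, 3.66 as the median and 5.54 as the highest value with increased competence, against 0, 0.315 and 0.394 CPM with decreased competence. F7 gave the lowest values with increased competence in both kinds of egg, with 1.01 CPM in gynogenetic and 1.85 CPM in control eggs. ENSOMYG00000007107 had 0.807, 2.83 and 5.90 CPM as the lowest, median and highest values with increased competence, against 0.0713, 0.360 and 0.481 CPM with decreased competence. ENSOMYG00000065472 had 0 counts in 3 of 6 libraries of decreased competence, with a highest value of 1.992 CPM in the control eggs of F1 and a lowest value of 0.266 CPM in the gynogenetic eggs of F7 among the libraries of increased competence. ENSOMYG00000070779 was likewise low, with 0.622 to 2.35 CPM against 0 to 0.305 CPM, and 0 counts in the control eggs of F3 and F6. At such values a library rests on few fragments, and the counting intervals of the nearest libraries overlapped in all 4 of these genes.

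Several higher members parted the groups at larger counts. ENSOMYG00000021119 had 30.8, 18.8, 32.8 and 18.7 CPM in gynogenetic eggs of F1, F4, F7 and F8, against 3.62, 6.05 and 4.30 CPM in F2, F3 and F6. In control eggs it had 27.2, 20.1, 29.4 and 15.9 CPM in F1, F4, F7 and F8, against 5.63, 7.16 and 3.54 CPM in F2, F3 and F6. The nearest libraries differed 2.21-fold, at 15.9 CPM (14.3 to 17.5) in control eggs of F8 and 7.16 CPM (6.21 to 8.23) in control eggs of F3. ENSOMYG00000057021, named for its narrow groups after its values were seen, had 21.3, 25.4 and 32.3 CPM as its lowest, median and highest values with increased competence, against 8.75, 11.01 and 11.3 CPM with decreased competence. In this gene neither group reached a spread of 2-fold, and the distance between the nearest libraries was 1.88-fold.

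ENSOMYG00000043948 was 6.05-fold higher by means, with 6.95, 15.6 and 37.7 CPM as the lowest, median and highest values with increased and 1.36, 2.55 and 5.13 CPM with decreased competence. Both libraries of F1 were highest in this gene, with 29.1 CPM in gynogenetic and 37.7 CPM in control eggs. ENSOMYG00000010143 had 5.68, 10.5 and 24.9 CPM with increased and 0.916, 2.08 and 3.46 CPM with decreased competence. Here both libraries of F7 led, with 24.9 CPM in gynogenetic and 15.8 CPM in control eggs. ENSOMYG00000034446 had 2.89 to 8.22 CPM with increased and 0.0875 to 1.66 CPM with decreased competence, and ENSOMYG00000047861 4.29 to 13.0 CPM and 0.637 to 3.24 CPM in the same order of groups. ENSOMYG00000039732 was at 2.07 to 5.23 CPM with increased and at 0.0437 to 1.20 CPM with decreased competence, where F2 alone was above 1 CPM in both of its libraries. ENSOMYG00000072119 was at 0.772 to 2.60 CPM with increased and at 0 to 0.654 CPM with decreased competence.

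Among the lower members, ENSOMYG00000032447 had the largest ratio. In gynogenetic eggs it had 0.109, 0, 0 and 0.0349 CPM in F1, F4, F7 and F8, against 2.49, 6.44 and 2.19 CPM in F2, F3 and F6. In control eggs it had 0.285, 0.0702, 0 and 0 CPM in F1, F4, F7 and F8, against 2.69, 4.24 and 0.612 CPM in F2, F3 and F6. It was close to the limit of detection in eggs of increased competence, where 28 counts, or 14 fragments if halved, were found over 8 libraries. The ratio of means was 49.9-fold in favour of decreased competence, and most of the spread within that group came from F3 and from the control eggs of F6. The counting intervals of its nearest libraries overlapped, at 0.335 to 1.03 CPM in control eggs of F6 and 0.123 to 0.561 CPM in control eggs of F1.

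ENSOMYG00000062729 was found in eggs of only 1 of the 4 females with increased competence. Its libraries of F1, F4 and F7 all held 0 counts, and F8 had 0.803 CPM in gynogenetic and 0.335 CPM in control eggs. The 3 females of decreased competence had 1.74, 2.699 and 2.04 CPM in gynogenetic eggs of F2, F3 and F6 and 2.20, 2.07 and 1.84 CPM in their control eggs. These 6 values were close to each other, and the interval of the lowest of them (1.25 to 2.38 CPM) lay above that of the gynogenetic eggs of F8 (0.509 to 1.21 CPM). ENSOMYG00000003891 was likewise at 0 counts in 5 of 8 libraries of increased competence, with 0.405 CPM as the highest value in control eggs of F7, against 0.733 to 2.25 CPM with decreased competence. ENSOMYG00000006635 was at 0 counts in 4 of 8 libraries, with 0.118 CPM at most, against 0.424 to 3.85 CPM with decreased competence. In ENSOMYG00000003891 and ENSOMYG00000006635 the counting intervals of the nearest libraries overlapped.

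In the next group of lower members, 1 female of decreased competence stood above the other two. ENSOMYG00000065800 had 0.0426 to 0.444 CPM with increased competence, and with decreased competence 0.567 and 0.673 CPM in F2, 2.04 and 2.17 CPM in F3 and 7.85 and 9.71 CPM in F6, each time with the gynogenetic library first. ENSOMYG00000030663 had 0 to 0.592 CPM with increased and 0.655 to 4.27 CPM with decreased competence, again with both libraries of F6 highest. ENSOMYG00000055360 had 0 to 0.562 CPM with increased and 0.587 to 3.78 CPM with decreased competence, with both libraries of F3 highest. ENSOMYG00000026129 and ENSOMYG00000049201 were also highest in F3, at 3.43 and 14.9 CPM in its gynogenetic eggs. ENSOMYG00000026129 ranged from 0 to 1.36 CPM with increased and from 1.40 to 4.31 CPM with decreased competence. ENSOMYG00000049201 ranged from 0.740 to 3.86 CPM with increased and from 4.53 to 14.9 CPM with decreased competence. ENSOMYG00000026844 was at 0.341 to 0.799 CPM with increased and at 1.07 to 2.704 CPM with decreased competence. The counting intervals of the nearest libraries overlapped in each of the genes from ENSOMYG00000065800 to ENSOMYG00000026844 named here.

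**Figure D2:**
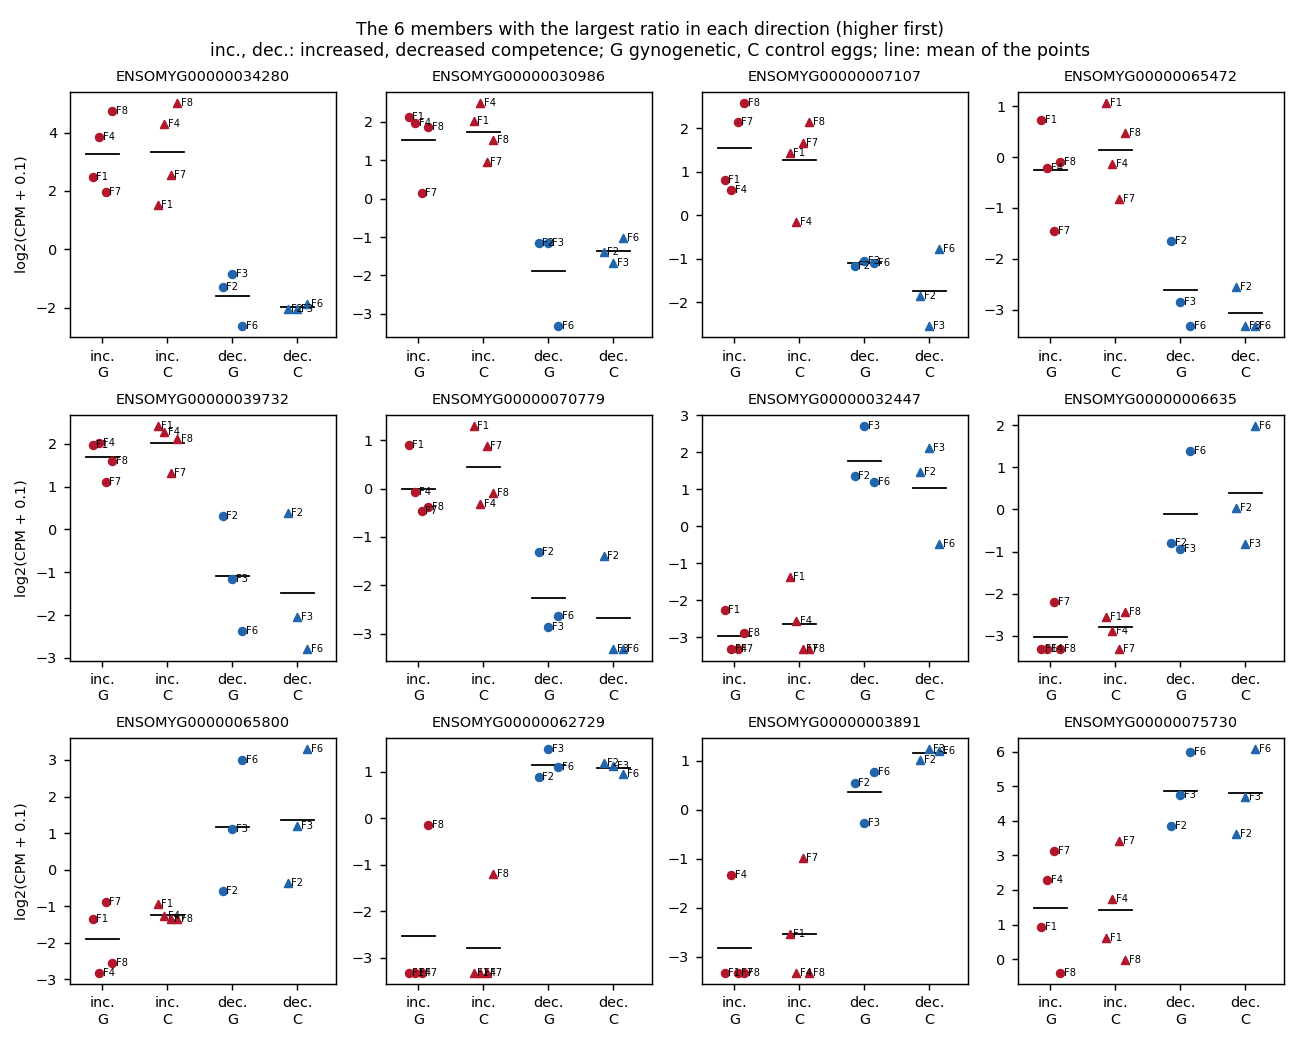
log2(CPM + 0.1) of the 6 members with the largest ratio in each direction, 1 panel a gene, with each library as a point (circles gynogenetic, triangles control eggs, named by female, red increased and blue decreased competence) and a line at the mean of the points. No red point overlaps the blue ones within a panel. The 2 libraries of a female lie close in some panels, as in ENSOMYG00000075730, where F6 is highest at 63.7 and 67.3 CPM. They lie farther apart in others, as those of F4 in ENSOMYG00000065800, at 0.0426 and 0.316 CPM.

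The most counted members had small ratios. ENSOMYG00000021669 had 176, 252 and 268 CPM as the lowest, median and highest values with increased and 269, 291 and 310 CPM with decreased competence. Its groups met almost exactly, with a distance of 1.00125-fold between the nearest libraries, and its low values were those of F1, with 199 CPM in gynogenetic and 176 CPM in control eggs. ENSOMYG00000032892 was wider apart, with 71.6, 110 and 133 CPM against 155, 180 and 200 CPM. ENSOMYG00000023292 had 75.4 to 107 CPM with increased and 116 to 218 CPM with decreased competence, ENSOMYG00000020579 54.3 to 71.7 CPM and 76.3 to 97.5 CPM, and ENSOMYG00000072525 31.6 to 69.1 CPM and 83.5 to 104 CPM. Among the higher members, ENSOMYG00000020616 had 140 to 179 CPM with increased and 105 to 139 CPM with decreased competence, and ENSOMYG00000016737 91.9 to 137 CPM and 58.6 to 84.6 CPM. ENSOMYG00000047210 had 72.5 to 116 CPM against 38.5 to 60.0 CPM, ENSOMYG00000055364 19.2 to 59.9 CPM against 10.8 to 18.2 CPM, and ENSOMYG00000032223 22.5 to 43.6 CPM against 18.1 to 22.3 CPM, with both libraries of F8 highest.

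Of the 2 members with an annotation, ENSOMYG00000046344 is ARL3, a small GTPase of the ADP-ribosylation factor-like family that in mammals releases lipid-bound proteins from their carriers in cilia. RefSeq places it as arl3b on chromosome 23 of OmykA_1.1, from base 40102267 to base 40124134. In gynogenetic eggs it had 45.4, 48.4, 39.7 and 34.6 CPM in F1, F4, F7 and F8, against 82.4, 95.4 and 70.5 CPM in F2, F3 and F6. In control eggs it had 50.2, 59.5, 42.0 and 30.05 CPM in F1, F4, F7 and F8, against 80.9, 94.1 and 82.7 CPM in F2, F3 and F6. ARL3 was thus lower in all 8 libraries of increased competence, with means of 43.7 ± 9.29 CPM (SD, n = 8 libraries) and 84.3 ± 9.24 CPM (SD, n = 6 libraries) and a log2 ratio of -0.95. Its nearest libraries were the control eggs of F4 with 59.5 CPM (56.7 to 62.4) and the gynogenetic eggs of F6 with 70.5 CPM (67.6 to 73.5). The 2 libraries of F4 (48.4 and 59.5 CPM) and those of F6 (70.5 and 82.7 CPM) were about as far from each other.

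The annotation has another gene with an arl3 symbol, arl3l1, on chromosome Y, and the neighbouring gene sfxn2 ends 43 bases before arl3b starts. How alike the sequences of arl3l1 and arl3b are was not tested. How reads of alike or adjoining genes were shared out depends on the counting. No source used here gives its strand setting, so the ARL3 values carry that uncertainty. The other annotated member, ENSOMYG00000008936, is LOC110486193, an uncharacterized gene on chromosome 13 from base 34722212 to base 34735641. It had 5.30, 10.7 and 13.8 CPM as the lowest, median and highest values with increased competence, against 15.7, 16.1 and 19.1 CPM with decreased competence. Both libraries of F7 were lowest, with 5.30 CPM in gynogenetic and 6.25 CPM in control eggs.

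The gap between the groups was narrow in most members. The lowest CPM of the higher group was 1.00025 to 5.998 times the highest CPM of the lower group, with a median of 1.14. Just inside the rule stood ENSOMYG00000013786 with a distance of 1.00025-fold and ENSOMYG00000021669, and just outside it ENSOMYG00000037408 with 0.998 and ENSOMYG00000048031 with 0.997. The 95% Poisson intervals of the nearest libraries were apart in 16 of 87 members, 9 higher and 7 lower. Among these were ENSOMYG00000034280, ENSOMYG00000021119, ENSOMYG00000034446, ENSOMYG00000010143, ENSOMYG00000047210 and ENSOMYG00000016737 of the higher and ENSOMYG00000062729, ENSOMYG00000032892, ENSOMYG00000072525, ENSOMYG00000023292 and ARL3 of the lower members. The Poisson intervals cover counting error only. Over genes, the squared difference between the 2 libraries of a female was on average 55.9 (F8) to 170 (F6) times its counting variance, on counts as deposited. Intervals that are apart therefore do not show a gap beyond the spread between pools of 1 clutch. Each member has 1 edge in each group. Among the 4 females of increased competence, F7 set the edge in 34 members, F4 in 19 and F1 and F8 in 17 each, and among the 3 females of decreased competence F3 set it in 36, F6 in 29 and F2 in 22.

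**Figure D3:**
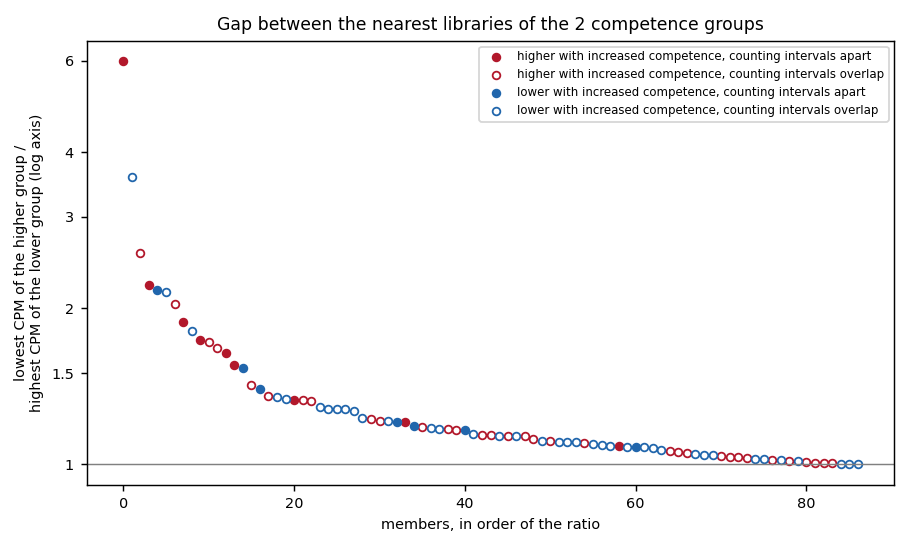
Distance between the nearest libraries of the competence groups for each of the 87 members, as the lowest CPM of the higher group over the highest CPM of the lower group (log axis), in falling order. Red members were higher and blue ones lower with increased competence, filled points are the 16 members whose counting intervals (on halved counts) are apart, and the median distance is 1.14.

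The scale of the values decided some memberships. With TMM-scaled CPM (trimmed mean of M values, a correction for composition) 72 of the 87 members still had no overlap, with CPM from DESeq2 size factors 69, and under all 3 scalings 68, of which 40 were higher and 28 lower. The whole rule applied on TMM-scaled CPM gave 56 higher and 39 lower genes, and 58 and 34 with DESeq2 size factors, against 42 and 45 on plain CPM. In each case both directions together were 0.453% of 20967, 0.441% of 20846 and 0.414% of 21000 genes, in the same order. TMM factors were 0.922 to 1.07 with increased and 0.918 to 1.11 with decreased competence. The 19 members that overlapped under TMM or DESeq2 scaling had distances of 1.14-fold at most, and those named in the text were ENSOMYG00000013786, ENSOMYG00000055360, ENSOMYG00000030663, ENSOMYG00000015671, ENSOMYG00000023292, ENSOMYG00000020579, ENSOMYG00000021669 and LOC110486193. Of the 16 members whose counting intervals were apart, 15 had no overlap under any of the 3 scalings, and the exception was ENSOMYG00000023292.

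Each kind of egg can be read alone, although clutches are shared between them. Among gynogenetic libraries 649 of the 21000 genes, or 3.09%, had no overlap between the competence groups, and among control libraries 1315, or 6.26%. The lists shared 176 of the 21000 genes in the same direction, which is 27.1% of the gynogenetic and 13.4% of the control list, and 0 genes in opposite directions. Both lists come from the same 7 females, so the shared directions are not 2 separate observations. All 87 members are among the 176 by the way they were chosen. The ratio of the means of the 2 groups was 1.20 to 103 in gynogenetic eggs, with a median of 2.55, and 1.25 to 98.2 in control eggs, with a median of 2.63.

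Whether the gap between competence groups differed between gynogenetic and control eggs is another contrast than the one that chose the members. The choice still bears on it, since no overlap over both kinds of egg fixes the direction of the gap in each, so a member with opposite gaps could not arise. edgeR's quasi-likelihood test of the interaction called 0 of 87 members and 0% of the 21000 genes at an adjusted p below 0.05, with 0 members and 22 genes (0.105%) below 0.05 before adjustment, and DESeq2 called 0 members too. The difference of the gaps, gynogenetic minus control on the log2 scale, was -2.05 to 1.22 over the members, with a median standard error of 0.59. The lowest value belonged to ENSOMYG00000065472 and the highest to ENSOMYG00000062729, both with libraries at 0 counts. With 4 and 3 females a difference of the size of that error was not detectable in this fit, which leaves the female out. With the female as a block, 0 members were called, with 0 members and 453 genes (2.16%) below 0.05 before adjustment. In the blocked fit the difference of the gaps was -2.33 to 1.14 over the members, with a median standard error of 0.38.

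**Figure D4:**
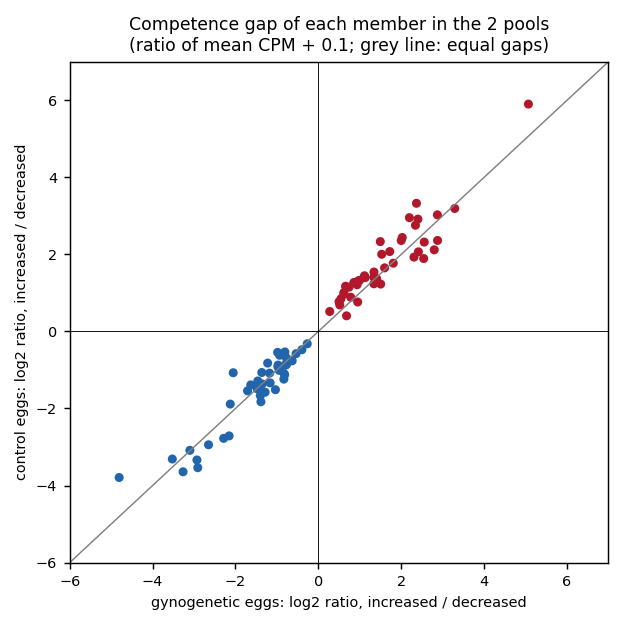
Competence gap of each of the 87 members in gynogenetic eggs (x axis) and in control eggs (y axis), as the log2 ratio of mean CPM + 0.1 with increased over decreased competence, red for higher and blue for lower members, with a grey line at equal gaps. The members lie in the 2 corners that the choice of members prescribes, and ENSOMYG00000034280 is farthest out at 5.07 and 5.90.

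Activation by irradiated or non-irradiated sperm was compared in eggs of the same females, first without and then with the female in the fit. edgeR's quasi-likelihood test with competence as covariate and Benjamini-Hochberg adjustment over all 21000 genes called 0 of 87 members between gynogenetic and control eggs, while 71 genes or 0.338% were called in all, each of them lower in gynogenetic eggs. Before adjustment 0 members were below 0.05, against 6.91% of all genes. The count over all genes moved when single females were left out. It was 5 without F2, 8 without F3, 18 without F1, 19 without F6 and 25 without F7. Without F4 it was 55 and without F8 it was 61. DESeq2 called 304 genes, 40 of them higher in gynogenetic eggs. The count of members was 0 in each of these fits. Of the members, 41 had a positive and 46 a negative log2 difference, from -0.77 to 0.67, with a median standard error of 0.28. Because the 2 libraries of a female are paired, the fit was repeated with the female as a block. The blocked fit called 1134 genes or 5.40% in all, 1.32% higher and 4.08% lower in gynogenetic eggs, and again 0 of 87 members. Before adjustment 4 members were below 0.05, against 19.1% of all genes. No overlap over both kinds of egg limits how far a member can shift with the treatment. In neither fit is the share of members to be set against that of all genes.

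These 4 members were all lower in gynogenetic eggs. ENSOMYG00000043948 had 29.1, 15.4, 10.6, 6.95, 2.40, 2.31 and 1.36 CPM in gynogenetic eggs of F1, F4, F7, F8, F2, F3 and F6, against 37.7, 10.5, 15.8, 21.0, 2.69, 5.13 and 4.33 CPM in their control eggs. Its gynogenetic library was the lower one in 6 of 7 females, F4 being the exception, with a blocked log2 difference of -0.72 ± 0.24 (SE) and an edgeR adjusted p of 0.0969. DESeq2 with the block gave -0.73 and an adjusted p of 0.0233, and the blocked edgeR fit without F4 gave -0.92 and an adjusted p of 0.0388. Without the block its adjusted p was 0.570 or more under every setting run. ENSOMYG00000011370 was lower in 6 of 7 females as well, with -0.55 ± 0.19 and an edgeR adjusted p of 0.107, and with an adjusted p of 0.0432 in DESeq2 with the block. These 2 members were the only ones that DESeq2 called with the block, among 9.45% of all genes.

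The other 2 were lower in 7 of 7 females but by less. In F7 the log2 difference, on CPM with 0.1 CPM added, was -0.073 for ENSOMYG00000037740 and -0.002 for ENSOMYG00000016073. Her 2 libraries were thus all but equal in the latter. ENSOMYG00000037740 had a blocked log2 difference of -0.34 and an edgeR adjusted p of 0.187, and its levels in gynogenetic eggs were 4.53 to 23.4 CPM, against 5.27 to 31.0 CPM in control eggs. ENSOMYG00000016073 had -0.32 and an adjusted p of 0.211. Both fail the adjustment over all genes. For ARL3 the blocked log2 difference was -0.09 ± 0.12 with an edgeR adjusted p of 0.734.

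Females of like competence also differed from each other in many members. The test of females within the competence groups, edgeR's quasi-likelihood test on 5 coefficients with treatment as covariate, called 35 of 87 members or 40.2%, against 53.8% of all 21000 genes. No overlap limits how far a female can reach towards the other group, so the share of members is not to be set against that of all genes. The called members were 21 higher and 14 lower ones, and 33 of the 57 members with an absolute log2 ratio of 1 or more were called, against 2 of the 30 others. Without overlap, a small ratio leaves little room for females within a group to differ. The difference between these shares is therefore partly fixed beforehand. DESeq2's likelihood ratio test called 45 members, against 63.9% of all genes. The residual of this test is the difference between 2 libraries of 1 clutch, so it speaks of these clutches.

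The smallest p belonged to ENSOMYG00000075730, a lower member, with an edgeR adjusted p of 7.1e-07. It had 1.81, 4.77, 8.67 and 0.664 CPM in gynogenetic eggs of F1, F4, F7 and F8, and 1.42, 3.23, 10.7 and 0.879 CPM in their control eggs, so F7 was above the other 3 in both and F8 below them. In the females of decreased competence it had 14.3, 26.7 and 63.7 CPM in gynogenetic eggs of F2, F3 and F6, and 12.2, 25.8 and 67.3 CPM in their control eggs. The order of the 7 females was the same in both kinds of egg. ENSOMYG00000015671, with an adjusted p of 4.5e-05, was listed at 0 counts in both libraries of F8 and at 1.98 and 1.45 CPM in F7, against 6.92 and 7.31 CPM in F3 and 2.05 and 2.41 CPM in F2, the gynogenetic library first.

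ENSOMYG00000012051 (edgeR adjusted p 6.8e-05) parted F2 from the other females of decreased competence. F2 had 0.392 CPM in gynogenetic and 0.744 CPM in control eggs, while F3 and F6 had 6.17 to 10.2 CPM, just under the lowest value with increased competence of 10.4 CPM. ENSOMYG00000002572 (2.1e-04) showed the same low F2, with 2.44 and 2.30 CPM. ENSOMYG00000059786 (3.3e-04) was instead lowest in F6, with 1.33 CPM in gynogenetic and 1.79 CPM in control eggs, against 9.52 and 9.34 CPM in F3. ENSOMYG00000039732 (5.2e-04) was highest in F2 among the females of decreased competence. Its mean over the libraries of a female was 1.17 CPM in F2, against 0.245 CPM in F3 and 0.0682 CPM in F6.

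In ENSOMYG00000017705 (edgeR adjusted p 1.4e-04) it was a female of increased competence that stood apart. F7 had 19.7 CPM in gynogenetic and 13.1 CPM in control eggs, while F1, F4 and F8 had 2.43 to 4.50 CPM and the females of decreased competence 0.654 to 1.71 CPM. Without F7 its log2 ratio was 1.21, against 2.22 with her. ENSOMYG00000011370 (2.9e-04) was highest in F1 in both kinds of egg and lowest in F6, at 0.742 and 0.787 CPM. ENSOMYG00000062729 (5.8e-04) differed through F8 and ENSOMYG00000034280 (8.7e-04) through F4 and F8, as given above.

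**Figure D5:**
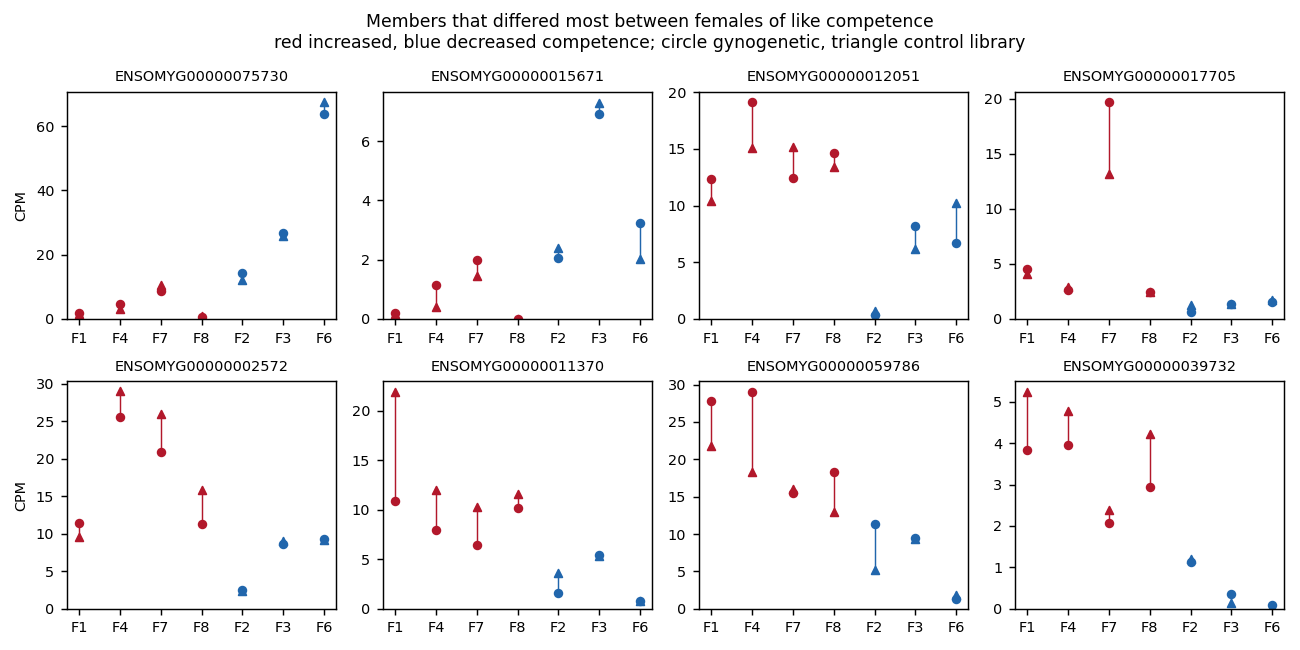
CPM of the 8 members with the lowest p between females of like competence, 1 panel a gene, with the females along the x axis (increased competence red, left; decreased competence blue, right) and the gynogenetic (circle) and control (triangle) library of a female joined by a line. The joined points lie close together in ENSOMYG00000075730, with 63.7 and 67.3 CPM in F6 and 26.7 and 25.8 CPM in F3, and far apart in F1 for ENSOMYG00000011370, with 10.8 and 21.9 CPM.

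The leading female varied among members. Of the 42 higher members, 29 were highest in the same female of increased competence in both kinds of egg. They were 9 in F8 (21.4%), 7 in F1 (16.7%), 7 in F7 (16.7%) and 6 in F4 (14.3%). Over all 21000 genes these shares were 14.8%, 8.85%, 10.5% and 21.6%. Another 13 higher members (31.0%) were not highest in the same female, against 44.3% of all 21000 genes. Of the 45 lower members, 24 were highest in the same female of decreased competence in both kinds of egg. They were 10 in F6 (22.2%), 7 in F2 (15.6%) and 7 in F3 (15.6%), against 22.8%, 11.2% and 23.2% of all genes. Another 21 (46.7%) were not, against 42.8% of all genes. The choice of members may bear on these shares, so no result is read from their difference from all genes. After each member was centred within its competence group, the 2 libraries of a female correlated with r = 0.54 over 609 pairs of values, which share clutches and genes and are given with no p.

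Single females moved the size of the ratio in some members. Leaving out 1 female moved the ratio by over 1.5 times in 15 of 87 members and changed its sign in 0, which the absence of overlap fixes beforehand. F3 did so in 5 members, F6 in 4, F2 and F7 in 3 each and F8 in 2, while F1 and F4 did so in 0. The largest shift was in ENSOMYG00000065800, with a log2 ratio of -1.98 without F6, against -3.41 with her, followed by ENSOMYG00000062729, with -4.46 without F8, against -3.18 with her. ENSOMYG00000039732 had 3.88 without F2, against 2.67 with her, and ENSOMYG00000006635 had -2.28 without F6, against -3.48. ENSOMYG00000034280 had 4.79 without F8 and ENSOMYG00000032447 -3.69 without F3.

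Some pairs of members had high correlations across the 14 libraries after centring within the competence groups. ENSOMYG00000071309 and ENSOMYG00000077323, both higher with increased competence, had r = 0.92, and ENSOMYG00000062729 and ENSOMYG00000032223 had r = 0.89, and both were highest in F8 among the females of increased competence. ENSOMYG00000006635 and ENSOMYG00000059786 went opposite ways with r = -0.91, the one highest and the other lowest in F6, and ENSOMYG00000030986 and ENSOMYG00000074708 had r = -0.89. ENSOMYG00000062729 was at 0 CPM in F1, F4 and F7, so its value leans on F8. These are the 4 strongest of all pairs of members, picked for their size, and they rest on 7 females. Whether they exceed the strongest values among as many pairs of unrelated genes was not tested. No function is known here for any of the 8 genes.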

How the data were processed

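RNA of pooled eggs was sequenced from libraries of the Illumina Stranded mRNA kit. The authors checked reads with FastQC 0.11.9, trimmed them with Flexbar, aligned them with STAR 2.7.5c to OmykA_1.1 and used HTSeq 1.99.2 to count them over Ensembl genes, per the submitters' processing notes. The deposited values are unnormalized counts of 64494 genes per library. No source used here gives the strand setting. The 5 summary lines (64.6% to 67.6% of all counts) were not used. For normalization the authors name DESeq2 (3.16 in the submitters' notes), and all scaled values here are new.

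Nearly all counts were even, so Poisson intervals (95%) and the floor of 3 fragments used halved counts. The tests used the counts as deposited, and halved counts were an alternative chosen after seeing the data. edgeR's quasi-likelihood test gives no standard error. Those printed here are approximate, the absolute log2 difference over the square root of the F statistic.

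The labels give treatment and replicate number. The female came from the study's supplementary file through the library number. The competence groups are those of the rule, which follow the study's grouping of females by survival of gynogenetic offspring. Members and lists were chosen with earlier results of these data known. P-values measure the spread between these pools, which may be technical in part.

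edgeR 4.0.16 (TMM, quasi-likelihood test, R 4.3.3) and DESeq2 1.42.0 were run on the 21000 genes with a mean of at least 0.5 CPM. Both used Benjamini-Hochberg adjustment and a threshold of 0.05. edgeR's tests were first run on simulated counts. For the treatment and interaction tests these counts held no differences between females, so they do not show how the unblocked fits behave here. The replicate number pairs the 2 libraries of a female: their deviations from the treatment means correlated with r of 0.582 to 0.743, against 0.0896 at most between females, and 7 of 7 gynogenetic libraries were closest to their own female. The text names the annotated members, the 12 largest ratios and the 5 highest means in each direction and up to 10 members called in each test; others are named for a stated reason. Alternatives were other scalings, minimum CPM, pseudocounts, tools and filters, each replicate left out, each kind of egg alone and the female as a block.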

Additional observations from a re-analysis of the deposited data

Results flagged for a closer look

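Among the 4 libraries of increased competence of each kind of egg, a library far from the other 3 was found in 9 of 82 groups. The 9 of 82 carry no test, because the genes were named partly for their differences between females. In 4 of the 9 cases the other 3 libraries were at 0 counts, so any count stood apart. ENSOMYG00000017705 had 19.7 CPM in gynogenetic eggs of F7, with the other 3 at 2.45 to 4.50 CPM, and 13.1 CPM in control eggs of F7, with the other 3 at 2.43 to 4.06 CPM. ENSOMYG00000062729 had 0.803 CPM in gynogenetic and 0.335 CPM in control eggs of F8, with 0 counts in all other libraries of increased competence. The same female stood apart in both of her libraries in these 2 genes.

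ENSOMYG00000032223 had 42.1 CPM in control eggs of F8, with the other 3 at 26.9 to 29.0 CPM. ENSOMYG00000072525 had 31.6 CPM in control eggs of F1, with the other 3 at 50.6 to 52.8 CPM. ENSOMYG00000011370 had 21.9 CPM in control eggs of F1, with the other 3 at 10.3 to 11.997 CPM. ENSOMYG00000006635 had 0.118 CPM in gynogenetic eggs of F7 and ENSOMYG00000003891 had 0.298 CPM in gynogenetic eggs of F4, with the other 3 libraries at 0 counts.

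ENSOMYG00000037135, a higher member, was lower in gynogenetic than in control eggs in all 4 females of increased competence, with a mean difference of -3.12 CPM, and higher in all 3 females of decreased competence, with a mean difference of 1.986 CPM. It was picked from 87 members for these opposite signs. edgeR's quasi-likelihood test of the interaction gave a log2 difference of -0.39 ± 0.38 (SE) and a p of 0.324 before adjustment, which is not below 0.05 after adjustment over all genes either. With the female as a block, the same test gave -0.38 ± 0.27 (SE) and a p of 0.177 before adjustment.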

How the results depend on the processing

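The count of 87 genes without overlap, or 0.414% of 21000, was 92 of 20846 (0.441%) with DESeq2 size factors and 95 of 20967 (0.453%) with TMM. It was 97 of 26124 (0.371%) with a minimum of 0.1 CPM, 76 of 18531 (0.41%) with 1 CPM and 57 of 12448 (0.458%) with 5 CPM. Leaving out 1 replicate gave 181 without replicate 1 (F1), or 0.859% of 21071 genes, as the lowest count. The highest was 390 without replicate 2 (F2), or 1.85% of 21049 genes. Each kind of egg alone gave 651 of 21108 (3.08%) in gynogenetic and 1288 of 20786 (6.2%) in control libraries. There the minimum was applied to the mean of those libraries instead of all 14. Fewer libraries leave fewer values that could overlap, so these counts are larger by construction.

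The count of members called between gynogenetic and control eggs was 0 with and without the replicate block and with halved counts. It was 2 with the replicate block in DESeq2 (ENSOMYG00000043948 and ENSOMYG00000011370) and 1 with the replicate block without replicate 4 (ENSOMYG00000043948). These fits called 1984 of 21000 and 809 of 20915 genes in all. Over all genes the block moved the count of calls to 1134, against 71 without it, and to 1225 with halved counts. For the gap between competence groups, 0 members were called under each of the settings, and 2 genes at most in all. The count of members that differed between females was 25 to 39 when 1 replicate was left out, 36 with halved counts and 31 with the treatment left out of the fit. Over all genes the count was 8576 to 11055 of 20877 to 21071 when 1 replicate was left out. It was 11800 of 21000 with halved counts and 8917 of 21000 with the treatment left out. The causes of these changes were not tested. In 17 members the mean of the lower group was under 0.5 CPM, where values rest on few fragments.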
